A study of Mus musculus with 3 samples.

Results

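Cytochrome c oxidase subunits VIa, VIIa and VIII each exist in a muscle form and a ubiquitous form, and the 6 genes that encode them were described in mouse C2C12 myoblast lines. The muscle forms are Cox6a2, Cox7a1 and Cox8b, and their ubiquitous partners are Cox6a1, Cox7a2 and Cox8a. A probe set was taken where its single gene symbol in the platform annotation was one of these names. That gave 11 of the 34958 probe sets with a single symbol, and 6 of 18194 genes. The 3 muscle genes had 4 probe sets and the 3 ubiquitous genes had 7.

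C2C12 is an immortal mouse myoblast line that can be made to form myotubes. The study put a short hairpin RNA (shRNA) against FoxO1, FoxO3 or FoxO4 into these cells, kept them in DMEM with puromycin, and picked colonies in which the intended factor was most depleted. Total RNA of each line went onto 1 Affymetrix array, so there are 3 arrays, 1 per line, and the hairpin and the colony cannot be told apart. A control RNAi sample enters only through a deposited ratio of the array labelled FoxO1. With 1 array per line there is no replicate check, so neither p-values nor errors of means could be had.

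Cytochrome c oxidase, also called complex IV, is the last enzyme of the respiratory chain: it passes electrons from cytochrome c to oxygen and pumps protons across the inner mitochondrial membrane. Its catalytic core is made from mitochondrial genes, and small subunits made from nuclear genes surround that core. In rodent muscle the muscle forms of VIa, VIIa and VIII accumulate as fibres mature and take the place of the ubiquitous forms, which most other tissues use.

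The values are GCOS signals, a scaled intensity per probe set, and each array had a 2% trimmed mean near 1000. A floor at the 20th percentile of an array was set before differences were taken, at signals of 81.2 for the FoxO1 label, 73.1 for FoxO3 and 77.3 for FoxO4. The control signal implied by the FoxO1 signal and its deposited ratio was used beside the measured arrays, and it is approximate. Foxo1 did not follow its label: its brightest probe set read 2778 on the array labelled FoxO1, 563 on FoxO3 and 1827 on FoxO4, with 1209 in the implied control. The brightest Foxo3 probe set read 1357, 1047 and 1016 in that order beside 1029, so it was no lower than control on the array labelled FoxO3. Medians over the 3 Foxo3 probe sets were 0.00 for FoxO3 and -2.03 for FoxO4 against the implied control. On FoxO4 the brightest probe set stood at -0.02, so the Foxo3 probe sets disagreed there. The brightest Foxo4 probe set read 1799, 345 and 80.4 beside 1678, lowest on the array labelled FoxO4. It stood at 2.10 for FoxO3 minus FoxO4 and at -4.38 for FoxO4 against the implied control. The medians over the 2 Foxo4 probe sets were only -0.06 and -0.64, so these probe sets disagreed. Every array is named by its label. Ratios of 3' to 5' signal for Actb were 6.31, 5.50 and 3.45 in the same order, beside 2.56 in the implied control. For Gapdh they were 5.0, 5.90 and 2.23 beside 2.68. The part of these ratios in the values below was not tested.

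Of the 7 ubiquitous probe sets, 6 lay above the 98th percentile of signal, and the third Cox8a probe set was dim. All 4 muscle probe sets lay below that percentile, at the 77.0, 23.6, 15.9 and 4.29 percentiles for the 2 Cox6a2 probe sets, Cox7a1 and Cox8b, so 1 Cox6a2 probe set was above the array median and the rest were dim. These percentiles place signals on the arrays and do not compare amounts of RNA between genes. Against control RNAi, Cox6a2 and Cox8b were lower on the array labelled FoxO1, and Cox7a1 was not.

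**Figure D1:**
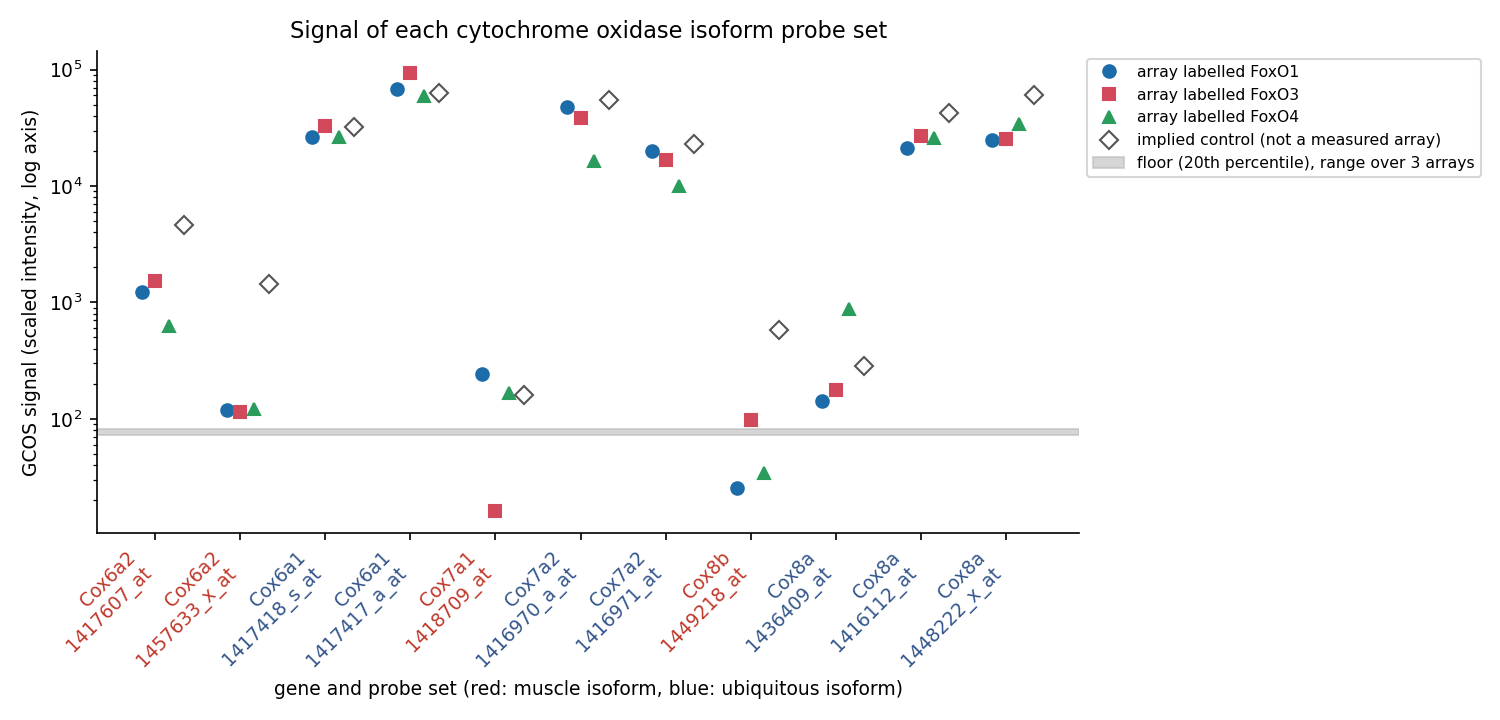
GCOS signal on a log axis for each of the 11 probe sets, with 1 symbol per array, open diamonds for the implied control and a grey band for the floors of 73.1 to 81.2. The Cox6a2 and Cox8b symbols of all 3 arrays lie below their diamonds, while the Cox6a1 symbols lie around theirs.

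Cox6a2 encodes the muscle form of subunit VIa, a small subunit with sites that bind adenine nucleotides. The gene spans chr7:128205435-128206366 in GRCm38.p6. Its brighter probe set, 1417607_at, read 1232 on the array labelled FoxO1, 1536 on FoxO3 and 630 on FoxO4. The array labelled FoxO4 was thus the lowest, by 0.97 on the log2 scale from FoxO1 and by 1.29 from FoxO3. The second probe set, 1457633_x_at, whose suffix marks probes that may bind other transcripts, read 119, 113 and 121 on the same arrays. It showed no such difference at these dim signals.

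Against control RNAi the authors' deposited table gave Cox6a2 log2 ratios of -1.9 and -3.6 on the array labelled FoxO1, both with a decrease call. These are signals 3.73-fold and 12.1-fold below the control, and decrease calls were given to 4.21% of all 45101 probe sets. The implied control signals were 4599 and 1447. All 3 arrays lay below both values, and against them the first probe set stood at -1.58 on the array labelled FoxO3 and -2.87 on FoxO4. For the second the values were -3.67 and -3.58. The 3 comparisons share that control, so they do not repeat one another.

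Cox6a1, the ubiquitous form of subunit VIa, lies at chr5:115345652-115348958. Its probe set 1417417_a_at read 68149 on the array labelled FoxO1, 94177 on FoxO3 and 59592 on FoxO4. The other Cox6a1 probe set, 1417418_s_at, read 26278, 33058 and 26242. Both were highest on the array labelled FoxO3, by 0.47 and 0.33 on the log2 scale over FoxO1. The deposited Cox6a1 ratios to control were 0.1 and -0.3, both called unchanged. Taking medians over probe sets, Cox6a2 lay at -2.75 and Cox6a1 at -0.10, a difference of -2.65 on the log2 scale.

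Cox7a1 encodes the muscle form of subunit VIIa and lies at chr7:30184171-30186030. Its single probe set, 1418709_at, read 244 on the array labelled FoxO1, 16.0 on FoxO3 and 167 on FoxO4. The array labelled FoxO3 was the low one, and its value lies below the floor of 73.1. With the floor, the log2 difference of Cox7a1 was 1.74 for FoxO1 minus FoxO3 and -1.19 for FoxO3 minus FoxO4. Without it these values were 3.93 and -3.38, and with a floor at the 40th percentile they were 0.22 and -0.03. The deposited Cox7a1 ratio to control was 0.6, with a call of no change, from an implied control signal of 161. Cox7a1 was therefore dim in the control as well, unlike the other muscle forms.

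Cox7a2, the ubiquitous form of subunit VIIa, lies at chr9:79755241-79771422. Its probe set 1416970_a_at read 47508 on the array labelled FoxO1, 38757 on FoxO3 and 16427 on FoxO4. The other, 1416971_at, read 20045, 16589 and 10064. The array labelled FoxO4 was lowest by both Cox7a2 probe sets, 2.89-fold and 1.99-fold below FoxO1 and 2.36-fold and 1.65-fold below FoxO3. The median log2 difference of Cox7a2 was 1.26 for FoxO1 minus FoxO4. Of the 1820 genes in the upper 10% by signal, 5.66% were at least 2-fold higher in that comparison. That share counts only the direction of Cox7a2, and over all genes in either direction it was 33.8%. For that pair of arrays, probe sets of the same gene differed by a median of 0.43 in size over 167 genes with 2 bright probe sets. The SD of these differences was 0.813. Those of Cox7a2 differed by 0.54, more than that median. Against control RNAi on the array labelled FoxO1, both Cox7a2 probe sets had a ratio of -0.2 and no change call. On the array labelled FoxO4 they stood at -1.73 and -1.19 against the implied control. Without the _a probe set, Cox7a2 stood at 0.99 for FoxO1 minus FoxO4, just short of 2-fold.

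The promoter of Cox7a2 is shown because both of its bright probe sets were lowest on the array labelled FoxO4. It is RefSeq sequence of GRCm38.p6 at chr9:79759804-79760103 on the minus strand, from 250 bases before an annotated start to 50 after it. That start lies inside the gene span given above and not at its outer end. Capitals mark GTAAACA, the core that forkhead factors are known to bind, at position -212. Both strands were searched for it, and 3.65% of 32851 promoters of this length hold it.
Cox7a2: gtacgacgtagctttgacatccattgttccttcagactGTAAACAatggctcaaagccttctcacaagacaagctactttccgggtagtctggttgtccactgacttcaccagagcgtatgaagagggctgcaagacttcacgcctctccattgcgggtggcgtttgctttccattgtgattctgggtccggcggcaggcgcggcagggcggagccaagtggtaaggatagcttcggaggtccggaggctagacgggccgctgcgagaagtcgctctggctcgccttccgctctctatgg

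**Figure D2:**
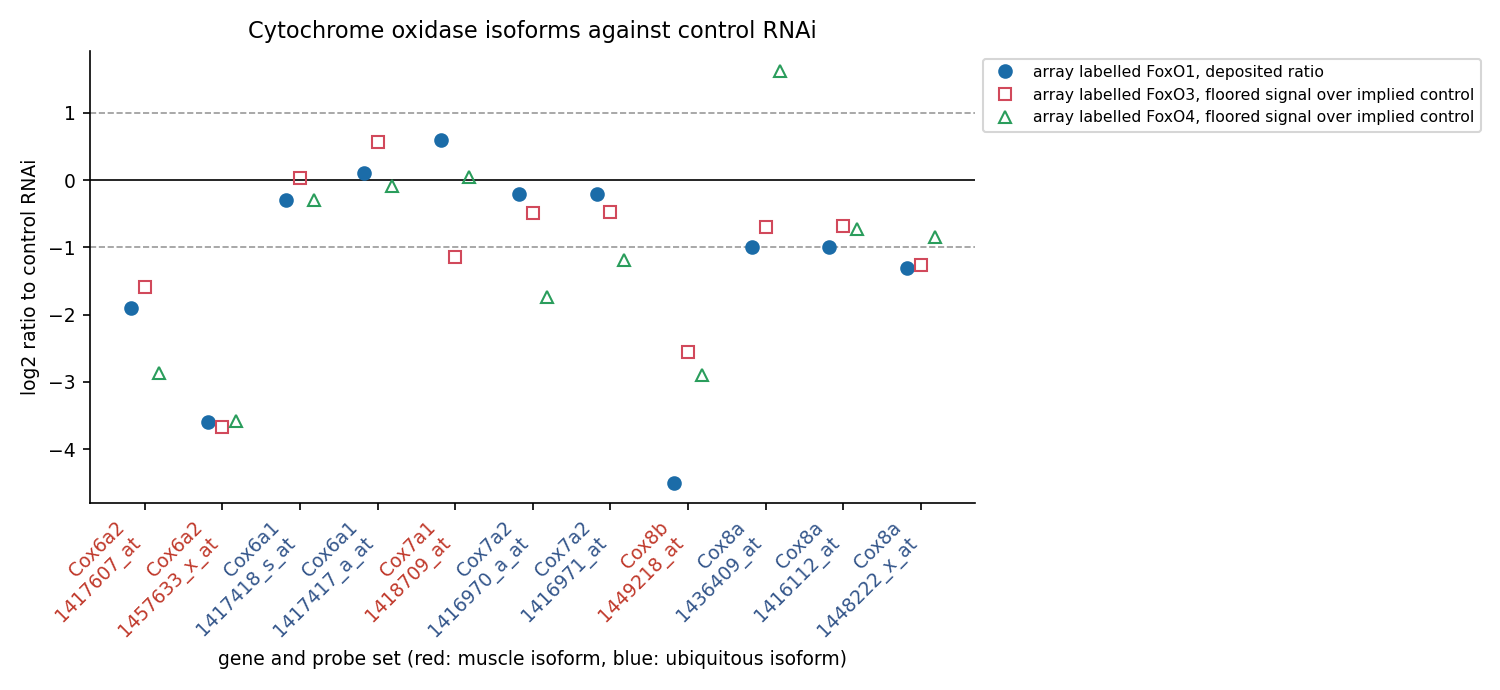
Log2 ratio to control RNAi for each of the 11 probe sets. Filled circles are the deposited ratio of the array labelled FoxO1 and open symbols the floored signal of the other arrays over the implied control, with dashed lines at 2-fold. Cox6a2 and Cox8b lie below the lower line on all 3 arrays, while Cox7a2 does so only on the array labelled FoxO4. Cox7a1 lies below it on FoxO3, and the Cox8a probe set 1448222_x_at on FoxO1 and FoxO3.

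Cox8b encodes the muscle form of subunit VIII and lies at chr7:140898942-140900446. Its single probe set, 1449218_at, read 25.4 on the array labelled FoxO1, 98.2 on FoxO3 and 34.1 on FoxO4. Only the array labelled FoxO3 lay above its floor, so the order of the others has no meaning. The floored log2 differences of Cox8b between arrays were -0.27, 0.07 and 0.35 for FoxO1 minus FoxO3, FoxO1 minus FoxO4 and FoxO3 minus FoxO4.

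The deposited ratio of Cox8b to control RNAi was -4.5, with a decrease call, and the implied control signal was 575. With signal and control both at or above the floor, the difference was -2.82 on the array labelled FoxO1, and it was -2.55 on FoxO3 and -2.89 on FoxO4. The FoxO1 and FoxO4 values, 7.08-fold and 7.44-fold lower, are set by the floor and are bounds only if the implied control is right. With a floor at the 40th percentile these log2 differences were -0.95 and -1.14. The implied control of 575 was itself computed from the FoxO1 signal of 25.4, below the floor, and no control signal was read directly.

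Cox8a, the ubiquitous form of subunit VIII, lies at chr19:7215158-7217616. Its probe set 1416112_at read 21419 on the array labelled FoxO1, 26668 on FoxO3 and 25954 on FoxO4. Its probe set 1448222_x_at read 24738, 25353 and 33966. These bright Cox8a probe sets stayed within 1.25-fold and 1.37-fold across the arrays. The third, 1436409_at, was dim and read 142, 175 and 873, so it was 6.14-fold higher on the array labelled FoxO4 than on FoxO1. Deposited ratios of Cox8a to control were -1.0, -1.3 and -1.0 for these 3 probe sets, and the -1.3 carried a decrease call. Of the 3 ubiquitous genes, Cox8a alone had a median ratio at the 2-fold limit, at -1.0, beside -4.5 for Cox8b.

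Promoters of Cox8b and Cox8a are shown because, of the pairs whose muscle gene was lower than control, this one had both promoters in the RefSeq table. The Cox8b sequence is chr7:140900397-140900696 and the Cox8a sequence chr19:7217567-7217866, both on the minus strand of GRCm38.p6 from RefSeq and of the same length as above. Capitals in Cox8b mark CAGCTG, an E-box that myogenic factors are known to bind, at positions -19 and 17, and TATAAA at position 5. Capitals in Cox8a mark CCGGAAG on the minus strand, a core known to be bound by ETS factors such as GABP, at positions -5 and 33. CAGCTG was present in 16.3% of the 32851 promoters, TATAAA in 13.6% and CCGGAAG in 8.86%.
Cox8b: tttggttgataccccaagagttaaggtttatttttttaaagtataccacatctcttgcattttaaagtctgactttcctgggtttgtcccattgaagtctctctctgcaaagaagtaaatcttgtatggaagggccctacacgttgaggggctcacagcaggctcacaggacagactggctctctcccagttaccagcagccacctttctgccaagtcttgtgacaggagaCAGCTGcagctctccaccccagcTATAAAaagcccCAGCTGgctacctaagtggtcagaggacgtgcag
Cox8a: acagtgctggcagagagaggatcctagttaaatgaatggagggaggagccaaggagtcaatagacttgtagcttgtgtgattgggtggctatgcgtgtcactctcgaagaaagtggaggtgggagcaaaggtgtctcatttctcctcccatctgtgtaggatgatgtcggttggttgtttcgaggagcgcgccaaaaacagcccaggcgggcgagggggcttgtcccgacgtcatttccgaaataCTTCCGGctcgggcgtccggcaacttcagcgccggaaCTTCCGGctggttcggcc
All 5 motifs were searched on both strands. The Cox6a1 promoter held CCGGAAG at position -16 and 2 matches to GCGCATG, part of the palindrome known to be bound by NRF-1, at positions -162 and -159, which overlap each other on opposite strands. GCGCATG was present in 3.91% of promoters. The Cox7a1 promoter held no match, and Cox6a2 is named only. These matches describe letters in the window and show no binding.

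Set side by side between arrays, the partners did not move as a group. The count at least 2-fold apart was 1 of 6 genes for each pair of arrays: Cox7a1 for FoxO1 minus FoxO3, Cox7a2 for FoxO1 minus FoxO4 and Cox7a1 for FoxO3 minus FoxO4. With plain probe sets alone the FoxO1 minus FoxO4 gene was Cox8a, at -1.45, in place of Cox7a2. Over all 18194 genes the shares were 35.4%, 33.8% and 33.5%, so the members' counts are at or below the background. The muscle gene minus its partner came to 0.28, 0.38 and 0.10 for Cox6a2 and Cox6a1 in these pairs. For Cox8b and Cox8a it came to 0.03, 0.53 and 0.77, with Cox8b at or close to the floor. For Cox7a1 and Cox7a2 it came to 1.46, -0.71 and -2.17, and the first and last of these rest on the Cox7a1 signal of 16.0.

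**Figure D3:**
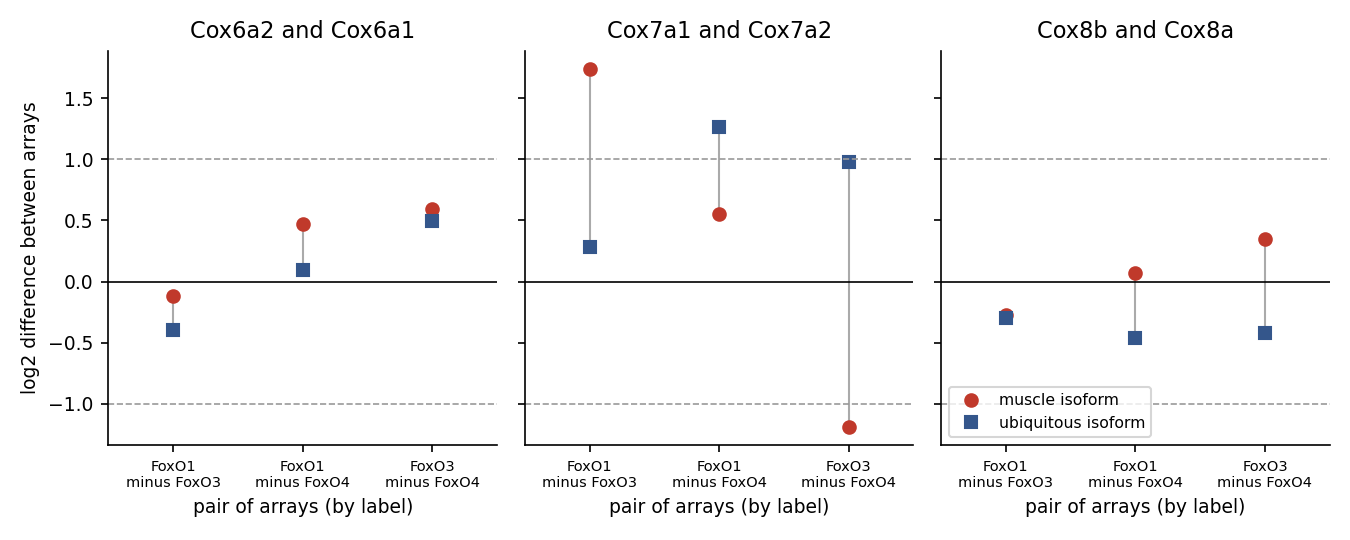
Log2 difference of each gene between pairs of arrays, in a panel per isoform pair, with circles for the muscle gene and squares for its ubiquitous partner, and dashed lines at 2-fold. Points past the dashed lines are Cox7a1 at 1.74 and -1.19 and Cox7a2 at 1.26.

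Against control RNAi the count lower by 2-fold or more on the array labelled FoxO1 was 3 of 6 members, with 0 higher, where 17.1% of all genes were lower. The 3 were Cox6a2, Cox8b and, exactly at the limit, Cox8a. Cox8b left the count at -0.95 with a floor at the 40th percentile, and Cox8a left it at -0.82 after quantile normalization. Decrease calls went to both Cox6a2 probe sets, the Cox8b probe set and 1 of 3 Cox8a probe sets. In the upper 10% of probe sets by signal, where most ubiquitous probe sets lie, 20% carried a decrease call. The muscle gene's ratio minus its partner's was -2.65 for subunit VIa, 0.80 for VIIa and -3.50 for VIII. The last rests on a Cox8b signal below the floor, and with signal and control floored it was -1.82. Floored differences against the implied control were -2.93, -0.66 and -1.85 on the array labelled FoxO3 and -3.03, 1.51 and -2.17 on FoxO4. There the lower members also numbered 3 of 6, beside 17% and 16.9% of all genes: Cox6a2 and Cox8b on each, with Cox7a1 on FoxO3 and Cox7a2 on FoxO4.

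The remaining subunits of complex IV were measured for 12 of 13 listed genes. On the array labelled FoxO1 their median ratio to control was -0.60, beside 0.00 over all genes, with 2 genes at least 2-fold lower and 1 higher, where 17.1% of all genes were lower and 18.8% higher. The lower ones were Cox4i1, the common form of subunit IV, at -1.0 with a decrease call, and Cox7b2 at -1.10, which was below the floor on that array. The higher one was Cox7c at 1.70, and its brighter probe set read only 340 there, at a ratio of 0.60. By the brightest probe set of each gene 3 were lower and 0 higher, with Cox6c at -1.0 and a decrease call. Cox5b stood at -0.85 and Cox6b1 at -0.80, and Cox7a2l, which takes part in joining complex IV into supercomplexes, at -0.90 with a decrease call on all 3 of its probe sets. Against the implied control the median of the subunits was 0.06 on the array labelled FoxO3 and -0.24 on FoxO4. They ranged from Cox7a2l at -1.33 to Cox7b2 at 2.33 on FoxO3, and from Cox7a2l at -1.20 to Cox7c at 1.61 on FoxO4. Between arrays, Cox6c lay at -1.25 for FoxO1 minus FoxO3 and Ndufa4 at -1.21 for FoxO3 minus FoxO4, and Cox7b2 stood at -2.46 and 2.53 in these pairs from signals of 23.7, 447 and 14.4.

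Of 18 measured assembly factors, which build complex IV and deliver its haem and copper, 3 were at least 2-fold lower and 3 higher than control on the array labelled FoxO1, with a median of -0.42. The shares over all genes were 17.1% and 18.8%, so these counts are near the background. By the brightest probe set 3 were lower and 0 higher. The lowest was Cmc1 at -2.25 and the highest Cox10, the haem farnesyltransferase, at 2.0. The other lower genes were Coa5 at -1.90 and Coa3 at -1.15. The brightest probe sets of the higher genes stood at -0.30 for Cox10, -0.50 for Cox16 and -0.30 for Cox20. Cycs, the somatic cytochrome c that feeds electrons to the enzyme, was -1.50 there with decrease calls on 3 of 4 probe sets. Its brightest probe set read 4903, 13166 and 16275 on the arrays in the order FoxO1, FoxO3 and FoxO4, beside 17075 in the implied control. Low Cycs signal was therefore seen on the array labelled FoxO1 and not on the others.

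Regulators of mitochondrial genes had a median of 0.10 over 14 genes on the array labelled FoxO1, with 3 at least 2-fold lower and 3 higher than control. Over all genes 17.1% were lower and 18.8% higher, so these counts are near the background. By the brightest probe sets 4 regulators were lower and 5 higher. Gabpb1, a subunit of the GABP factor, stood at -2.10, and Tfb1m, a mitochondrial rRNA methyltransferase, at 2.75. The brightest probe set of each had a no change call. For Gabpb1 it stood at -1.30, and for Tfb1m its implied control signal was 94.0, close to the 20th percentile of 88.8 in that control. Ppargc1a, a coactivator of mitochondrial gene expression, stood at -1.0 over 5 probe sets, the brightest of which read 239, 312 and 234 on the arrays and 511 in the implied control. Tfam, which packages mitochondrial DNA, stood at -0.90. The other regulators past 2-fold were Esrrg at -1.10, Ppargc1b at 1.90 and Tfb2m at 1.30, with no change calls on their brightest probe sets. These genes gave no single direction.

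Most markers of differentiated muscle were lower than control on the arrays where Cox6a2 and Cox8b were lower. All 14 were measured, 12 were at least 2-fold lower than control on the array labelled FoxO1, and the median was -3.30. Against the implied control 13 were lower on the array labelled FoxO3 and 12 on FoxO4, with medians of -4.16 and -4.09. Over all genes the shares were 17.1%, 17% and 16.9% in the order FoxO1, FoxO3 and FoxO4. Between arrays the marker medians were 1.04 for FoxO1 minus FoxO3, 1.87 for FoxO1 minus FoxO4 and 0.34 for FoxO3 minus FoxO4. For these pairs Cox6a2 stood at -0.12, 0.47 and 0.60, and Cox8b at -0.27, 0.07 and 0.35. Cox8b was at the floor on the arrays labelled FoxO1 and FoxO4, so its values there are set by the floor. Summed marker signal was 22604, 11804 and 7662 in the order FoxO1, FoxO3 and FoxO4, beside 233352 in the implied control. Myh8 was at or below the floor on the array labelled FoxO3, and Myh3 and Tnnc2 on FoxO4. Summed signal of 7 myoblast and progenitor markers was 24898, 35207 and 17291 beside 69920, and that of 8 fibroblast and smooth muscle markers 249694, 38999 and 119213 beside 42578. Summed signal stayed between 1365 and 2541 for 5 of 6 fat cell markers. Adipoq and Ucp1 were at or below the floor for the FoxO1 and FoxO4 labels. For 3 of 5 osteoblast markers the sum stayed between 2092 and 2302, though single genes moved in opposite directions. Alpl read 130 and Sp7 1905 on the array labelled FoxO3, beside 955 and 1056 in the implied control. The part of differentiation in the Cox6a2 and Cox8b values was not tested, and fewer differentiated cells and less RNA per cell cannot be told apart in bulk RNA.

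**Figure D4:**
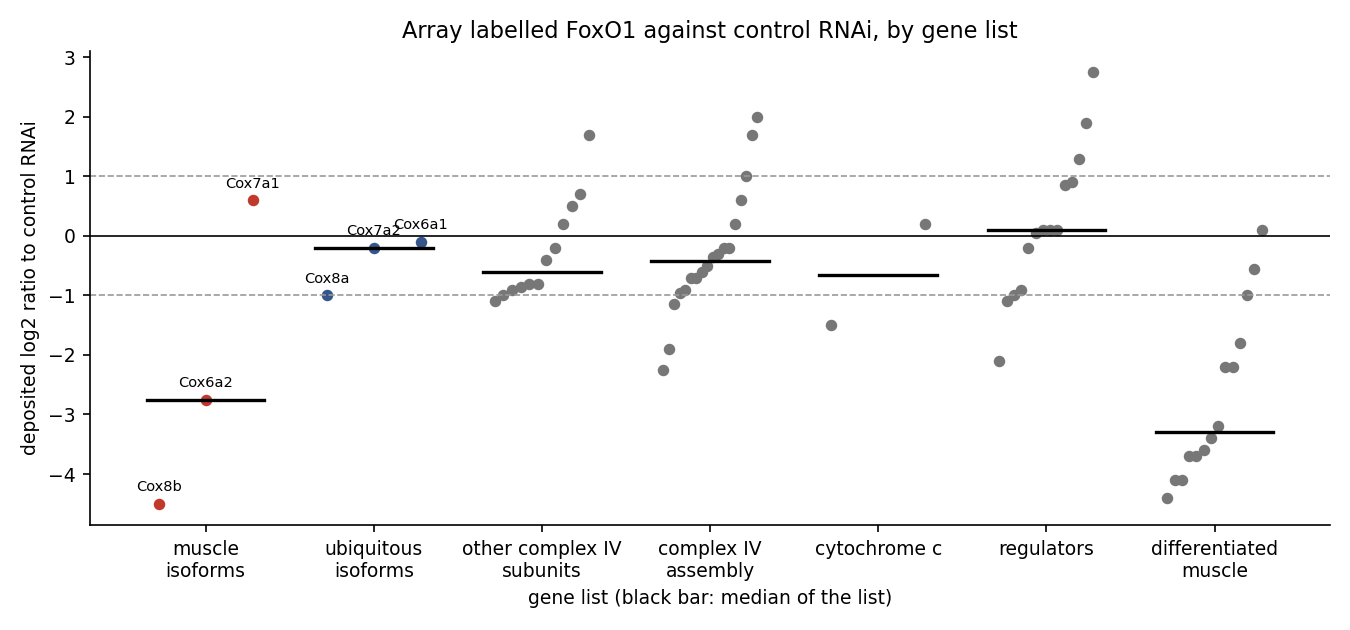
Deposited log2 ratio to control RNAi for the FoxO1 label, with 1 point per gene in each list, a black bar at the list's median and dashed lines at 2-fold. Cox6a2 at -2.75 lies within the range of the differentiated muscle genes, -4.40 to 0.10, and Cox8b at -4.50 lies just below it. The Cox8b ratio rests on a signal below the floor, and with signal and control floored it was -2.82. The ubiquitous genes lie between -1.0 and -0.10.

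Genes were also ranked by how near their profile over the 3 arrays came to the mean of Cox6a2 and Cox8b. Cox8b was at the floor on the arrays labelled FoxO1 and FoxO4, so its share of that mean is set by the floor there. The 6 nearest of 9094 genes above the median signal were Plxnd1, Sf3a1, Psmc2, Smarcd3, Gm10033 and Emx2os, at summed log2 distances of 0.01 to 0.03. Within a distance of 0.5 lay 1021 genes, 11.2% of those compared, so 3 arrays separate few profiles. Ratios to control of the 6 nearest ranged from -1.40 to 3.30, unlike the -2.75 and -4.50 of Cox6a2 and Cox8b.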

How the data were processed

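Expression was measured on 3 Affymetrix arrays, 1 per C2C12 line. The deposited signal table holds an intensity per probe set from GCOS, per the submitters' processing notes. The GCOS version was not given in the sources used here. The second deposited table holds log2 ratios to control RNAi and change calls, per the file headers, in steps of 0.1. Its rows followed the signals only for the array labelled FoxO1: r between the ratio and that array's signal minus the others was 0.57 over 45101 probe sets, beside -0.02 and 0.00 for FoxO3 and FoxO4. Only the FoxO1 ratio was read per probe set.

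Signals were floored at the 20th percentile, taken as log2 and subtracted per probe set. Genes with several probe sets took the median difference. The deposited ratio had no floor. Among probe sets, 34958 had 1 symbol, 932 several and 9211 none. An Entrez identifier matched 34754 to RefSeq (GRCm38.p6), used for names, coordinates and promoters. Genes were counted from a 2-fold difference (log2 value of 1). All 6 members were named, with some of the list genes at the ends or past the threshold, and a few others chosen for their roles after values were seen. Members, lists and motifs were chosen with earlier results of these data known. The comparisons of FoxO3 and FoxO4 with an implied control are an addition made with the values in view. Calculations were tested on simulated data. The number of arrays limits the precision. The software was Python 3.11.15 with numpy 2.4.6, pandas 2.3.3 and scipy 1.17.1, and matplotlib 3.10.9 for plots.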

Additional observations from a re-analysis of the deposited data

How the results depend on the processing

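Of 117 alternatives to the isoform pair differences and gene counts, 91 stayed within a limit, 24 moved beyond it and 2 reversed. The limit was the spread between bright probe sets of a gene, or 1.5 times for counts. Direction was checked only for main values of at least 1 in size, so smaller values could change sign within that spread. After quantile normalization, for FoxO1 minus FoxO3, Cox6a2 minus Cox6a1 went from 0.28 to -0.09 and Cox8b minus Cox8a from 0.03 to -0.21. Floor settings moved or reversed differences of the VIIa and VIII pairs and left those of the VIa pair within that spread. Without a floor, Cox7a1 minus Cox7a2 was 3.65 and -4.36 for FoxO1 minus FoxO3 and FoxO3 minus FoxO4, and Cox8b minus Cox8a was -1.65 and 1.95. With a floor at the 40th percentile, Cox7a1 minus Cox7a2 was -0.063 and -1.01, and Cox7a1 on the array labelled FoxO3 against the implied control was 0.14. At that floor Cox8b minus Cox8a against control was 0.051, from -0.95 for Cox8b and -1.0 for Cox8a on the array labelled FoxO1. With the control ratio floored at the 20th percentile, added after the data were seen, Cox8b minus Cox8a was -1.82, and with plain probe sets it was 1.52 for FoxO1 minus FoxO4. Member genes past 2-fold for FoxO3 minus FoxO4 numbered 2 after median centring, 3 with the brightest probe set, 3 with plain probe sets, 2 without a floor and 0 with the higher floor. For FoxO1 minus FoxO3 they numbered 2 without a floor and 0 with the higher floor, and at a log2 threshold of 2 there were 0 for every pair of arrays. Counts of other subunits went from 2 or 0 to 1 with the brightest or plain probe sets, the higher floor and the threshold of 2. The cause of these shifts beyond the floor and threshold was not tested. Median centring moved the median of all genes from 0.15 to -0.10 for FoxO1 minus FoxO3 and from 0.07 to -0.14 for FoxO1 minus FoxO4. Quantile normalization changed none of these counts by over 1.5 times, though Cox8a left the members lower than control, which numbered 2, as they did without Cox8b at the higher floor. With plain probe sets Cox8a replaced Cox7a2 for FoxO1 minus FoxO4. No paired analysis was possible because each line has 1 array. Leaving out a replicate could not be done for the same reason.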
